A study of Mus musculus with 8 samples.

Results

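A set of 39 cell cycle genes was examined across the cell classes of mouse lung adenocarcinomas. The genes were taken by symbol, and all 39 were found among the 32286 gene features of each single-cell matrix. They comprised 14 genes of DNA synthesis (S), 20 genes of the G2 phase and mitosis (G2/M), 2 E cyclins and 3 D cyclins. The tumours came from KPC mice, whose alleles the labels do not spell out, and began with lentivirus given through the trachea. From tumour initiation, the mA1 tumours carried CRISPR activation guided to Malat1, a long non-coding RNA, and the Con tumours carried the same activation guided to Tomato. Activation was described as specific to tumour cells. The largest tumours were taken at 16 weeks, 4 of each group, were dissociated, cleared of dead cells, tagged with 1 of 2 hashtag antibodies and run as 2 libraries per group with 10x 3' chemistry. Each combination of library and hashtag was counted as 1 tumour. The labels leave unsaid whether these tumours came from different animals, and p-values then measure the spread between samples, which may be technical.

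In the cell cycle, D cyclins rise with growth signals and, with their kinases, inactivate the retinoblastoma protein, which frees E2F factors to switch on E cyclins and the genes of DNA replication. The S genes then load and fire replication origins (the Mcm helicase subunits), supply nucleotides (Rrm1, Rrm2, Tyms, Tk1) and build the replication fork (Pcna, Pclaf). The G2/M genes drive entry into mitosis (Cdk1, Ccnb1, Ccnb2, Plk1), build the spindle (Kif11, Tpx2, Aurka, Prc1) and act at the centromere (Cenpa, Cenpe, Cenpf, Bub1, Aurkb, Birc5). Alveolar macrophages, which patrol the airspaces, are known to renew themselves by local division.

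Promoters are shown first because G2/M genes and S genes are known to be switched on through different promoter elements. In the RefSeq promoter table (build GRCm38.p6), which holds 250 bases before and 50 bases after each gene start, 31 of the 39 genes had a window. The other 8 were Aurkb, Ccna2, Ccnd1, Ccnd2, Ccne2, Esco2, Mcm4 and Tpx2. On both strands, TTTGAA, the cell cycle gene homology region, lay in the windows of 12 of 17 G2/M genes, 1 of 12 S genes and 20.2% of all 27025 genes (17.9% of all 32851 windows). CCAAT lay in 15 of 17 G2/M genes, 10 of 12 S genes and 41.1% of all genes (37.4% of windows). An E2F-type word (TTTGGCGC, TTTCCCGC, TTTGCCGC or TTTCGCGC) lay in 1 of 17 G2/M genes, 6 of 12 S genes and 2.60% of all genes (2.26% of windows). Words of different motifs overlapped once, in a window of Mcm7. The 5 windows below show the contrast, with these words in capitals: Ccnb2 (chr9:70421505-70421804, minus strand), Cdk1 (chr10:69352863-69353162, minus strand), Pclaf (chr9:65890073-65890372, plus strand), Mcm5 (chr8:75109259-75109558, plus strand) and Ccnd3 (chr17:47504801-47505100, plus strand).
Ccnb2: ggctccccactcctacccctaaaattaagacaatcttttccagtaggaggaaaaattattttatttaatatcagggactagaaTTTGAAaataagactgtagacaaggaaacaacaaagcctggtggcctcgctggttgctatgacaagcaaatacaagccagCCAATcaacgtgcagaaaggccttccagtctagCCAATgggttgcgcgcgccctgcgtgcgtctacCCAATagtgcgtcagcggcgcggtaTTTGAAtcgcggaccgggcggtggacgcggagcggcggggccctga
Cdk1: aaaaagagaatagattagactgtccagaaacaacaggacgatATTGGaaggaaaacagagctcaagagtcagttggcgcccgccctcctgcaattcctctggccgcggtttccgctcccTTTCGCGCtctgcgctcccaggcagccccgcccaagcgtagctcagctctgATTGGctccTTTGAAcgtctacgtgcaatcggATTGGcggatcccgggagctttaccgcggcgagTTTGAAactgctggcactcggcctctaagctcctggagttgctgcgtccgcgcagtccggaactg
Pclaf: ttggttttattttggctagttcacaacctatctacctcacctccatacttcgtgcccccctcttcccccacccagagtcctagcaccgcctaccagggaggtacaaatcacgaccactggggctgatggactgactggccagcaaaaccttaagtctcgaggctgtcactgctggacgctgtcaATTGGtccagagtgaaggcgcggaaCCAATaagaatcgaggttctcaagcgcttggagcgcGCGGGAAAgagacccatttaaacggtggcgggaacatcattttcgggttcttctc
Mcm5: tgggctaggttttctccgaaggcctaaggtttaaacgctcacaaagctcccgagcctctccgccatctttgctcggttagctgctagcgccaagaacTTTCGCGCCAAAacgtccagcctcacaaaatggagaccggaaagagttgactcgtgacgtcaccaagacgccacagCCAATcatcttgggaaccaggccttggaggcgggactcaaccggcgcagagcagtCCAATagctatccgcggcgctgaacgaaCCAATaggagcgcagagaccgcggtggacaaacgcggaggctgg
Ccnd3: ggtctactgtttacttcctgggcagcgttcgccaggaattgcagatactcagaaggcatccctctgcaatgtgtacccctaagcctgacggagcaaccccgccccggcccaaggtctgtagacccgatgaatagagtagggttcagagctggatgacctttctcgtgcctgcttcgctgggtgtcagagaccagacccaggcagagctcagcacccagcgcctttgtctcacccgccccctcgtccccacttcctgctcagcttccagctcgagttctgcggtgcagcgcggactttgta
Ccnb2 and Cdk1, which encode a mitotic cyclin and its kinase, each held 2 TTTGAA and 3 CCAAT words, and Cdk1 held 1 E2F-type word as well. Pclaf, a Pcna-binding factor, held 2 CCAAT words and 1 E2F-type word, and Mcm5 held 3 CCAAT words and 2 E2F-type words that overlapped each other. This window of Ccnd3 held no such word, while a window at its other start held 1 CCAAT. These matches describe letters and are not measured sites.

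The deposited UMI (unique molecule) counts summed to 73377111 and 48319272 in the mA1 libraries and to 74996867 and 54397659 in the Con libraries, and 23746 cells were used. Clusters were formed with 355 cell cycle genes left out, so that these genes did not define the classes. The tumour-like class (852 cells) carried 2736 CPM (a gene's UMIs scaled to a common total) of Krt8 and 791 CPM of Epcam, both epithelial genes, against 3.3 and 13.2 CPM in the alveolar macrophage-like class (5025 cells), which carried 12100 CPM of Chil3 and 104 CPM of Siglecf. The 9626 lymphocytes joined clusters with B, CD4 T, CD8 T, gamma-delta T and NK cell markers, for example 2493 CPM of Cd79a in the B cell-like, 463 CPM of Cd3e in the CD4 T-like and 1068 CPM of Ncr1 in the NK-like cells. Median depth was 28392.5 UMIs in tumour-like cells, 14240 in alveolar macrophage-like cells and 2982 in lymphocytes. The tumour-like cells numbered 142 and 129 in the mA1 libraries and 489 and 92 in the Con libraries, and only 25.9% of them carried 1 hashtag. They were therefore compared over libraries, while the immune classes were compared over tumours. Malat1 took 2.64% and 4.82% of tumour-like UMIs in the libraries labelled mA1, against 4.25% and 2.19% in those labelled Con (log2 difference 0.23 ± 0.47 SE, edgeR, Benjamini-Hochberg adjusted p = 0.999), so the libraries did not differ in the targeted RNA beyond their spread. Con library 2 stood apart in Xist, with 1222 CPM against 0.460 to 1.38 CPM in the other libraries, and in the Y-linked Ddx3y, with 0.0842 against 40.7 to 59.7 CPM, so the sex of the mice differed within the Con group. After filters, 877 pairs of cells shared a barcode between libraries, among them 64 tumour-like cells, each the deepest copy of its barcode (median 97555 UMIs, against 651.5 in the next copy). Results that rest on Con library 2 or on shared barcodes are given with and without them.

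A cell was called cycling when, after thinning to 1000 UMIs, it held at least 2 UMIs of the G2/M genes or at least 3 UMIs of the S genes. Tumour-like cells were rarely called cycling, and alveolar macrophage-like cells had the highest share of the 3 classes. Among tumour-like cells, 2.11% (3 of 142) and 1.55% (2 of 129) were cycling in the mA1 libraries, and 0.613% (3 of 489) and 3.26% (3 of 92) in the Con libraries. Among alveolar macrophage-like cells, the shares were 16.2% (277 of 1714) and 12.2% (138 of 1130) in the mA1 libraries, and 13.3% (202 of 1523) and 16.6% (107 of 645) in the Con libraries. Among lymphocytes, the shares were 1.95% (53 of 2718) and 2.31% (29 of 1254) in the mA1 libraries, and 1.41% (31 of 2193) and 2.29% (76 of 3326) in the Con libraries. Alveolar macrophage-like cells stood above both other classes in every library, while tumour-like cells and lymphocytes overlapped. Neutrophil-like cells, which no longer divide once mature, had 0.680% and 0.426% in mA1 libraries and 0.898% and 0% in Con libraries (median depth 1601 UMIs) and serve as the background. They include a cluster led by Ngp and Camp, granule genes of younger neutrophils, with 1.09% (6 of 552, interval 0.400 to 2.35%). The cluster led by Retnlg had 0.381% (5 of 1311, interval 0.124 to 0.888%). These intervals cover counting error only and overlap. Ccrl2, Il1a, Il23a and Cxcl2 were also among the leading genes of the Ngp cluster, and its maturity was not tested. The 0 of 336 neutrophil-like cells in Con library 2 allows a share of up to 0.893%.

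Averaged over the 4 libraries, the cycling share was 1.88% ± 1.11 in tumour-like cells, 14.6% ± 2.15 in alveolar macrophage-like cells and 1.99% ± 0.418 in lymphocytes (SD, n = 4). Without thinning, a call on the share of UMIs per cell gave means of 1.57%, 13.7% and 1.60%. Both calls ask for a fixed fraction of a cell's UMIs, so a cell with more UMIs needs more cell cycle UMIs. Tumour-like cells had the most UMIs of these classes, and whether this lowers their share was not tested. Tumour-like cells lay 12.7 ± 1.46 percentage points below alveolar macrophage-like cells (SD of the 4 library differences, range -14.05 to -10.7). They differed from lymphocytes by -0.106 ± 0.848 points (exact sign-flip permutation p = 1, two-sided). Alveolar macrophage-like cells lay 12.6 ± 2.11 points above lymphocytes (range 9.90 to 14.3). With 4 libraries the exact permutation test cannot go below p = 0.125, which both differences that involve alveolar macrophage-like cells reached. Over the 8 tumours the difference between alveolar macrophage-like cells and lymphocytes was 12.5 ± 2.13 points and lay between 8.22 and 14.8 in each (exact sign-flip permutation p = 0.0078, two-sided, the smallest possible). The pooled tumour-like share was 1.29%, with an exact 95% interval of 0.646 to 2.30% that covers counting error only. Of its 11 cycling cells, 4 had a shared barcode, and the 3 in Con library 2 had a median of 99638 UMIs. Without shared barcodes, tumour-like shares were 1.47% and 1.85% in mA1 libraries and 0.622% and 0% in Con libraries, and tumour-like cells lay 0.989 points below lymphocytes. The 0% in Con library 2 rested on only 62 cells, which still allows a share above 0. Without Con library 2, the differences were -12.5 points from alveolar macrophage-like cells and -0.467 points from lymphocytes.

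**Figure D1:**
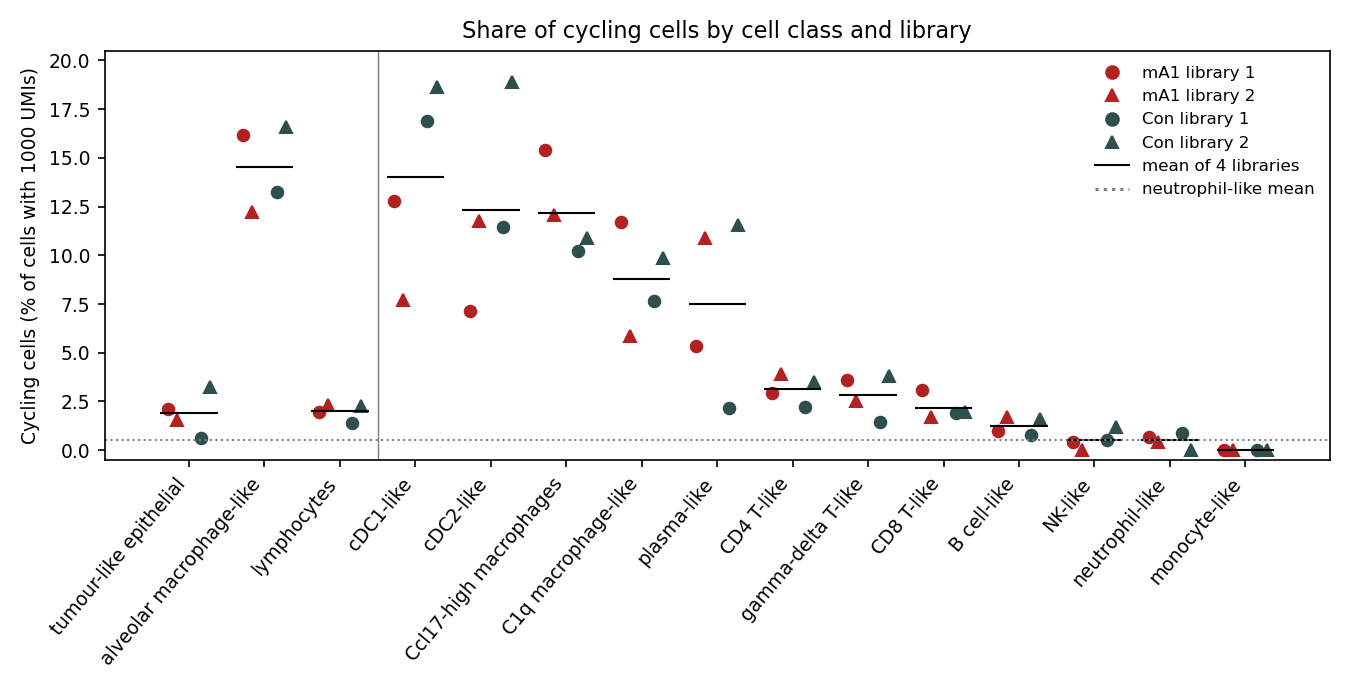
Cycling cells as a percentage of cells with at least 1000 UMIs (y axis) in the 3 main classes (left of the vertical line) and in other classes. Points are libraries, bars are means of 4 libraries and the dotted line is the neutrophil-like mean, and alveolar macrophage-like points (12.2 to 16.6%) lie above all tumour-like points (0.613 to 3.26%).

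Other myeloid classes differed widely. The mean over libraries was 14% in cDC1-like cells, 12.3% in cDC2-like cells and 12.1% in Ccl17-high macrophages, whose library values overlapped those of the alveolar macrophage-like cells. It was 8.76% in C1q macrophage-like cells (5.84 to 11.7%), below every alveolar macrophage-like value, and 1.59% in migratory DC-like cells. Without thinning, the C1q macrophage-like values ran from 4.32 to 17.9% and overlapped the alveolar macrophage-like ones (11.5 to 15.7%). Among monocyte-like cells, 0 of 330 were cycling, which allows a share of up to 0.909%. Plasma-like cells had 7.50%. Within the alveolar macrophage-like class, the cluster led by Spag11b, Fabp1, Il18 and Ear1 had 15.2% cycling cells (612 of 4019, 95% interval 14.1 to 16.4%). The cluster led by Inhba, Hilpda, Cxcl1 and Arg1 had 11.3% (112 of 993, 9.38 to 13.4%). None of the alveolar macrophage-like markers was among the 10 leading genes of this cluster. Within the T cell-like clusters the shares also differed. CD4 T-like cells led by Icos and Tnfrsf4, genes of activated T cells, had 5.40% (79 of 1464), against 0.724% (10 of 1381) in those led by Lef1 and Tcf7, genes of naive T cells. CD8 T-like cells led by Ccl5, Xcl1 and Ly6c2 had 3.31% (34 of 1026), against 0.557% (4 of 718) in those led by Dapl1 and Lef1. B cell-like cells had a mean of 1.26% and NK-like cells 0.530%, where the neutrophil-like mean was 0.501%. Among tumour-like subclusters, the shares were 1.29% (4 of 311, led by Nupr1), 1.37% (4 of 291, led by Ager and Clic5), 0.457% (1 of 219, led by Hmga2 and Igfbp3) and 6.45% (2 of 31, led by Tff2, Prap1 and Tff1), with intervals that overlap. Ager is a gene of alveolar type 1 cells, and none of the tumour-like markers was among the 10 leading genes of its subcluster or of the one led by Tff2. These intervals pool libraries and were not tested across them.

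Most cycling cells were called by their G2/M genes: 9 of 11 in the tumour-like class, 584 of 724 in the alveolar macrophage-like class and 141 of 189 among lymphocytes. The others were called by S genes alone. The balance, the log2 ratio of S to G2/M UMIs in cycling cells, was negative in every library of the 3 classes. The call takes fewer UMIs from G2/M than from S genes, so it favours G2/M in both of these measures, and its sign is not read as a result. The balance was -2.69 and -0.68 in mA1 libraries and -0.99 and -1.17 in Con libraries for tumour-like cells. It was -0.94 and -0.89 in mA1 libraries and -0.98 and -0.32 in Con libraries for alveolar macrophage-like cells, and -0.64 and -1.05 against -0.80 and -0.73 for lymphocytes. The tumour-like values rest on 2 or 3 cells per library. In cells not called cycling, the 14 S genes still summed to 182 to 304 CPM in tumour-like cells, 226 to 308 CPM in alveolar macrophage-like cells and 227 to 272 CPM in lymphocytes. The 20 G2/M genes summed there to 28.2 to 62.7, 87.6 to 103 and 73.9 to 93.8 CPM in the same order of classes, against 44.4 to 55.4 CPM in neutrophil-like cells.

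Summed over all cells of a class, G2/M genes were mostly low in tumour-like cells and high in alveolar macrophage-like cells. Mki67, the nuclear protein used as a proliferation marker, was at 17.5 and 1.79 CPM in mA1 libraries and 3.42 and 14.5 CPM in Con libraries in tumour-like cells. It was at 139 and 134.5 CPM in mA1 libraries and 120.4 and 149 CPM in Con libraries in alveolar macrophage-like cells, and at 32.0 and 46.1 against 30.4 and 47.2 CPM in lymphocytes. The 3 classes did not overlap for Mki67. Cdk1, the kinase of mitotic entry, was at 9.44 and 5.22 CPM in mA1 libraries and 6.11 and 26.5 CPM in Con libraries in tumour-like cells, and at 54.3 and 34.4 against 47.3 and 57.0 CPM in alveolar macrophage-like cells. In lymphocytes Cdk1 was at 10.1 and 12.4 CPM in mA1 libraries and 7.20 and 14.1 CPM in Con libraries, which overlapped the tumour-like range. Over 18 classes, 15 of the 20 G2/M genes had their highest mean in alveolar macrophage-like cells. The exceptions were Top2a and Aurkb in cDC1-like, Ube2c and Aurka in AT2-like and Cenpa in B cell-like cells. For most of the 15, Ccl17-high macrophages came second, and some leads were narrow. Ccna2 was at 32.55 ± 3.64 (SD) against 30.56 CPM, while Mki67 was at 135.6 ± 11.7 against 108.7 CPM. For Cdk1 the second class was AT2-like, at 47.86 against 48.27 CPM.

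In the class comparison (edgeR with library as a term, Benjamini-Hochberg adjusted p under 0.05 over 13523 genes), 36 of the 39 genes were lower in tumour-like than in alveolar macrophage-like cells and 1, Ccnd1, was higher. The background was high: 73.3% of all genes passed, 35.2% higher and 38.1% lower, against 92.3% of the 39 lower. The median log2 difference was -2.34 over the 39 genes and -0.06 over all genes, which another scaling (DESeq2) placed at 0.06. All 20 G2/M genes fell, with a median of -3.27 and a range of -4.48 (Aurkb) to -2.05 (Cenpf). Of the 14 S genes, 12 fell, with a median of -1.78. Pclaf fell by 4.32 ± 0.38 SE and Rrm2, a subunit of ribonucleotide reductase, by 4.17 ± 0.18 on the log2 scale (adjusted p = 1.1e-05 and 2.7e-10). Mcm6 (-0.23 ± 0.14) and Mcm7 (-0.20 ± 0.16), subunits of the replicative helicase, did not pass. Mcm7 was at 40.6 and 41.7 CPM in mA1 libraries and 47.8 and 33.9 CPM in Con libraries in tumour-like cells, against 42.6 and 41.7 CPM in mA1 libraries and 34.9 and 58.0 CPM in Con libraries in alveolar macrophage-like cells. Both E cyclins, which drive S phase entry, fell (Ccne1 by 2.31, Ccne2 by 2.28).

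With all cells kept, tumour-like cells and lymphocytes were closer. Of the 39 genes, 19 were lower in tumour-like cells and 1 was higher, where 78% of all genes passed, 37.9% higher and 40.1% lower, so the share of lower genes (48.7%) was near the background. The median over the 39 genes was -0.95. Among G2/M genes 8 of 20 were lower, among them Mki67 (-2.36 ± 0.50, adjusted p = 0.0030) and Aurkb (-2.76 ± 0.37, adjusted p = 2.0e-05), and among S genes 8 of 14, among them Rrm2 (-2.53 ± 0.20). Cdk1 (-0.12 ± 0.38), Tk1 (0.03 ± 0.25) and Mcm7 (0.12 ± 0.16) did not pass. Without shared barcodes, 34 of the 39 genes were lower and 1 was higher. The share over all genes is not given for that setting, so this count could not be set against a background. Without Con library 2, 26 of the 39 genes passed in all, where 10227 of all 13517 genes did.

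Alveolar macrophage-like cells exceeded lymphocytes in 33 of the 39 genes and were lower in 1, Ccnd3. Of all genes, 73.4% passed, 36.5% higher and 36.9% lower, against 84.6% of the 39 higher. The median over the 39 genes was 1.71. Among G2/M genes, 19 of 20 rose (median 2.03), led by Bub1, a spindle checkpoint kinase (3.02 ± 0.29, adjusted p = 8.9e-07), and Tpx2, a spindle assembly factor (2.45 ± 0.21, adjusted p = 6.6e-07). Among S genes, 11 of 14 rose (median 1.12), and both E cyclins rose. Mcm4, Mcm6, Mcm7, Cenpa and Ccnd2 did not pass. Cenpa, the histone variant of centromeres, was at 59.2 and 37.3 CPM in mA1 libraries and 47.0 and 44.2 CPM in Con libraries in alveolar macrophage-like cells, a range that held the lymphocyte values (49.0 to 52.4 CPM). It was highest in B cell-like cells, whose mean was 74.4 CPM.

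**Figure D2:**
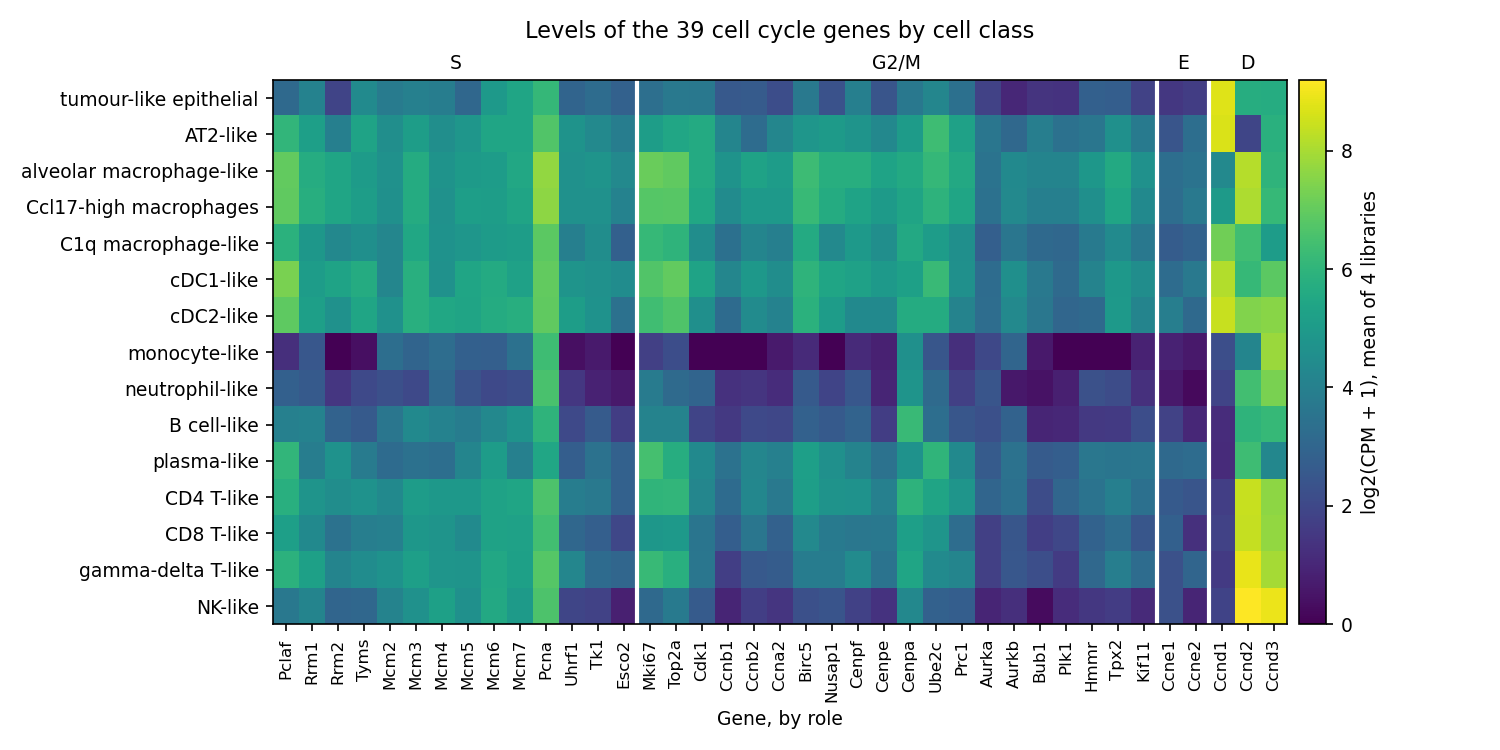
Mean level over 4 libraries of each of the 39 genes (x axis, by role) in 15 cell classes (y axis), as log2(CPM + 1) in colour. Of the 20 G2/M genes, 15 are highest in alveolar macrophage-like cells, and the 3 D cyclins follow other classes, with Ccnd1 at 427 CPM in tumour-like cells.

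The genes differed in how far their transcripts were confined to cycling cells. So that no gene called its own cells, cells were called from the unthinned UMIs without the gene in question. In alveolar macrophage-like cells, cycling cells held a median of 93.9% of the UMIs of each G2/M gene (81.3% for Ccnb2 to 98.1% for Hmmr), 68.5% of each S gene (47.3% for Pcna to 98.8% for Esco2) and 14.4% of each D cyclin. In lymphocytes the medians were 84.3% for G2/M genes, 33.1% for S genes and 3.69% for D cyclins. In tumour-like cells they were 73.5%, 22.5% and 3.36%. The order G2/M, S, D cyclins was the same in the 3 classes. It is partly set by the call, which rests on the other G2/M and S genes, with a lower threshold for G2/M, and never on D cyclins. Mki67 was at 279 CPM in cycling and 1.02 CPM in other tumour-like cells, and at 696 and 12.0 CPM in cycling and other alveolar macrophage-like cells. In lymphocytes Mki67 was at 744 and 7.59 CPM. Cycling tumour-like cells numbered only 10 in this call, against 685 and 146 in the other classes. Cenpa was an exception among G2/M genes in lymphocytes, where cycling cells held 27.0% of its UMIs. In tumour-like cells, Pcna (8.61%), Mcm7 (8.92%) and Mcm6 (9.84%) lay mostly outside cycling cells.

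**Figure D3:**
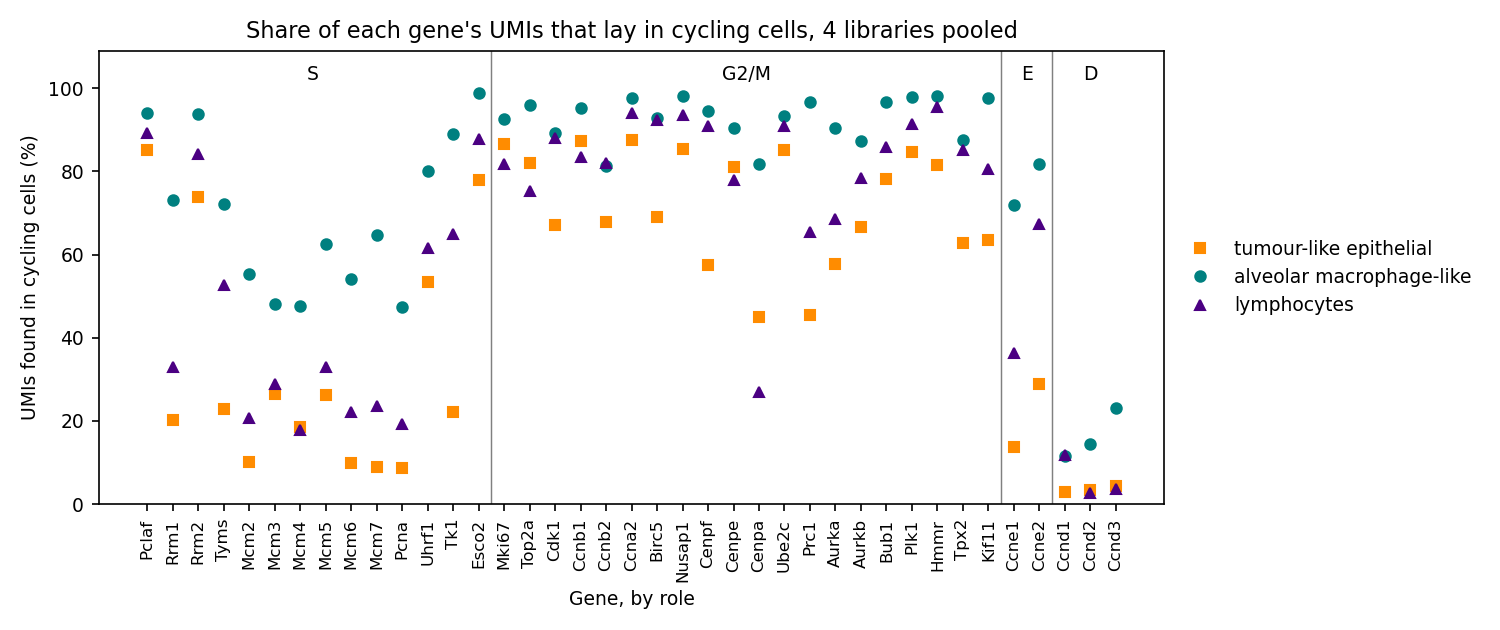
Percentage of each gene's UMIs that lay in cycling cells (y axis) for the 39 genes by role (x axis), 4 libraries pooled, in tumour-like cells (squares), alveolar macrophage-like cells (circles) and lymphocytes (triangles). D cyclins lie at the bottom in each class, between 2.64% and 23.1%.

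The D cyclins were divided among the classes, and the class with the highest mean of each had few cycling cells. Ccnd1 was also high in cDC2-like cells (347 CPM, 12.3% cycling), and Ccnd2 was at 289 CPM in alveolar macrophage-like cells (14.6% cycling). Ccnd1 was at 494.5 and 409 CPM in mA1 libraries and 333 and 471.5 CPM in Con libraries in tumour-like cells. It was at 12.0 and 14.6 CPM in mA1 libraries and 22.9 and 27.4 CPM in Con libraries in alveolar macrophage-like cells, and its mean was 2.20 CPM in lymphocytes. Every tumour-like value exceeded every value of the other 2 classes. The log2 difference was 4.40 ± 0.24 SE to alveolar macrophage-like cells (adjusted p = 1.0e-07) and 7.51 ± 0.31 to lymphocytes (adjusted p = 1.2e-08). AT2-like epithelial cells (412 CPM), cDC2-like (347 CPM) and cDC1-like cells (283 CPM) followed in order, with library values that overlapped their neighbours.

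Ccnd2 was highest in NK-like cells (586 ± 42.1 CPM, SD, n = 4) and gamma-delta T-like cells (478 CPM). It was at 28.5 and 28.0 CPM in mA1 libraries and 35.6 and 114 CPM in Con libraries in tumour-like cells. Its mean was 289 ± 14.9 CPM in alveolar macrophage-like cells and 331 ± 45.0 CPM in lymphocytes. Tumour-like cells were lower than both (log2 differences -2.78 ± 0.42 and -2.96 ± 0.42), while alveolar macrophage-like cells and lymphocytes did not differ beyond their spread (-0.19 ± 0.37). AT2-like cells, epithelial cells as well, had a Ccnd2 mean of only 2.80 CPM.

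Ccnd3 was also highest in NK-like cells (484 ± 32.5 CPM), of which 0.530% were cycling. Its mean was 50.3 ± 9.56 CPM in tumour-like cells, 61.6 ± 9.16 CPM in alveolar macrophage-like cells and 218 ± 30.6 CPM in lymphocytes (SD, n = 4). The log2 difference was -0.42 ± 0.12 between tumour-like and alveolar macrophage-like cells and -2.23 ± 0.12 between tumour-like cells and lymphocytes. Within alveolar macrophage-like cells, Ccnd1 was at 11.4 CPM in cycling and 19.1 CPM in other cells, and Ccnd2 at 227 and 299 CPM. In lymphocytes Ccnd2 was at 190.0 CPM in cycling and 329 CPM in other cells.

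**Figure D4:**
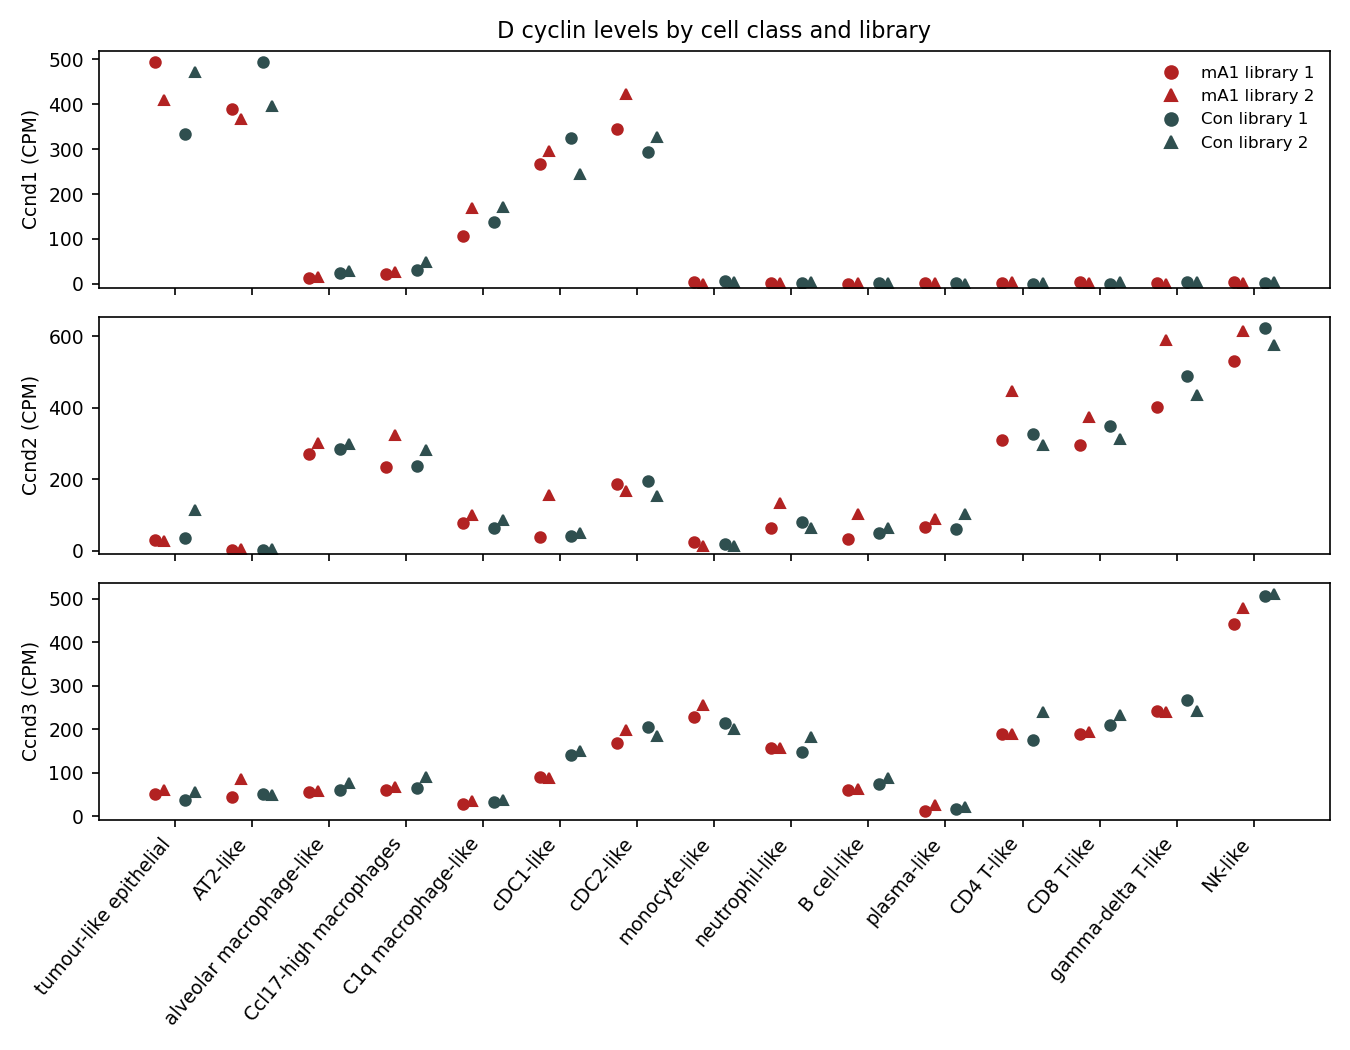
Levels of Ccnd1, Ccnd2 and Ccnd3 in CPM (y axes, linear) in 15 cell classes (x axis), with 1 point per library. Ccnd1 is high in tumour-like cells (333 to 494.5 CPM) and Ccnd2 and Ccnd3 in NK-like cells (means 586 and 484 CPM).

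A wider list of 82 other cell cycle genes was set beside the 39. Tumour-like cells were lower than alveolar macrophage-like cells in 60 of them (73.2%) and higher in 11 (13.4%), against 38.1% lower and 35.2% higher over all genes. The lower genes included Bub1b, a checkpoint kinase (-3.97 ± 0.18 SE), Knl1 (-3.95) and Kif2c (-3.56), both of the kinetochore, and E2f2 (-3.54). The higher genes included 3 inhibitors of cyclin-dependent kinases, Cdkn1c at 4.46 ± 0.26, Cdkn2b at 4.15 ± 0.18 and Cdkn2a at 2.09 ± 0.16. Of the 10 genes of the inhibitor list, which also holds the growth arrest genes Btg1, Btg2 and Trp53inp1, 4 were higher and 4 were lower (40% each, near the shares over all genes), and Cdkn1a (0.36) and Cdkn1b (0.17) did not pass. Cdkn2a was at 263 and 297 CPM in mA1 libraries and 369 and 239 CPM in Con libraries in tumour-like cells, against a mean of 63.6 ± 16.5 CPM in alveolar macrophage-like cells and 3.01 ± 1.07 CPM in lymphocytes (SD, n = 4). The Cdkn2a values of the 3 classes did not overlap. Wee1, a kinase that holds Cdk1 inactive, was higher in tumour-like cells than in both (2.20 and 1.98).

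Against lymphocytes, tumour-like cells were higher in 17 (20.7%) and lower in 42 (51.2%) of the 82 genes, against 37.9% higher and 40.1% lower over all genes. Cdkn2a (6.57 ± 0.23), Cdkn2b (6.50 ± 0.24) and Cdkn1a (2.81 ± 0.28), inhibitors, were higher. Cdkn2d (-4.21 ± 0.16), Rbl2, a pocket protein of resting cells (-2.76 ± 0.14), and Cdkn1b (-1.74 ± 0.12) were lower. Alveolar macrophage-like cells were higher than lymphocytes in 50 (61.0%) and lower in 19 (23.2%), against 36.5% higher and 36.9% lower over all genes. The higher genes included E2f1 (2.88 ± 0.24), Anln (4.05 ± 0.41) and Cdkn1a (2.45 ± 0.27). Klf2, a factor of resting T cells, was lower there (-3.97 ± 0.29), as was Cdkn1b (-1.91 ± 0.12).

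The study's question was whether Malat1 activation in tumour cells changes the cells around them, and the libraries labelled mA1 and Con were compared within each class. The cycling share did not differ beyond the spread between samples. It was 1.83% ± 0.398 in mA1 and 1.94% ± 1.87 in Con libraries for tumour-like cells (SD, n = 2 each; exact permutation p = 1, where the smallest possible is 0.333). In alveolar macrophage-like cells, the mA1 tumours had 15.3%, 16.3%, 11% and 13.5%, and the Con tumours 13.1%, 13.3%, 16.0% and 17.7%. The means were 14.04% ± 2.33 and 15.02% ± 2.24 (SD, n = 4 each), a difference of -0.976 points (exact permutation p = 0.6, two-sided, smallest possible 0.0286). In lymphocytes, the mA1 tumours had 1.89%, 2.00%, 2.78% and 1.93%, and the Con tumours 1.46%, 1.40%, 2.03% and 2.94% (means 2.15% ± 0.420 and 1.96% ± 0.715, exact permutation p = 0.629). With all libraries the groups overlapped in each class. Without Con library 2 the differences were 1.22 points in tumour-like cells, 0.870 in alveolar macrophage-like cells and 0.719 in lymphocytes. In tumour-like cells and lymphocytes the remaining mA1 and Con samples then did not overlap, with exact permutation p of 0.333 and 0.0667, the smallest that 2 against 1 and 4 against 2 samples allow. Without shared barcodes the differences were 1.35, -0.961 and 0.192 points in the same order of classes, the first of them with only 62 tumour-like cells in Con library 2.

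The balance of S to G2/M UMIs in cycling alveolar macrophage-like cells was -1.06, -0.87, -0.79 and -1.02 in mA1 tumours, against -0.84, -1.05, -0.31 and -0.32 in Con tumours. The difference of means was -0.30 (exact permutation p = 0.257, two-sided) and rested on Con library 2, whose tumours gave the 2 highest values. Without that library it was 0.01. In lymphocytes the balance was -0.79 ± 0.46 in mA1 and -0.76 ± 0.37 in Con tumours, and in tumour-like cells -1.69 ± 1.42 in mA1 and -1.08 ± 0.13 in Con libraries, given without a test because some samples had under 10 cycling cells.

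None of the 39 genes differed between mA1 and Con in the 3 classes by edgeR's quasi-likelihood test at a Benjamini-Hochberg adjusted p under 0.05, and none did by DESeq2. The tumour-like subclusters were not evenly spread over libraries: the one led by Nupr1 held 59.2% and 61.2% of the class in mA1 libraries and 19.8% and 55.4% in Con libraries, and the one led by Hmga2 held 5.63% and 10.1% in mA1 libraries and 38.7% and 9.78% in Con libraries. Their part in the values of the tumour-like class was not tested. In tumour-like cells 36 genes were tested over libraries, and 0 had an unadjusted p under 0.05. Of all 11485 genes tested, 0 (0%) passed and 385 (3.35%) had an unadjusted p under 0.05. The smallest p among the 39 genes was that of Mcm2, a helicase subunit, at 12.9 and 6.68 CPM in mA1 libraries and 16.3 and 16.3 CPM in Con libraries (log2 difference -0.77 ± 0.32 SE, edgeR adjusted p = 0.999). Ccnd2 (-1.42 ± 0.64), Pclaf (-1.49 ± 0.93), Cdk1 (-1.17 ± 0.82) and Esco2, a cohesin acetyltransferase (1.27 ± 1.09), followed, and Ccnd1 (0.14 ± 0.23) and Ccnd3 (0.25 ± 0.27) had small estimates. The median was -0.11 over the 36 genes and -0.01 over all genes. Of the 17 G2/M genes tested, 14 had a negative estimate (median -0.47). A positive one was found for 17 of 18 without Con library 2 and for 10 of 20 without mA1 library 2. It was found for 0 of 20 without mA1 library 1 or Con library 1. Without shared barcodes only 9 were tested and 6 were positive (median 0.21). With neighbouring clusters merged in, 16 of 20 were positive. Con library 2, whose cycling tumour-like cells all had shared barcodes, was highest for Ccnd2, Pclaf, Cdk1 and Ube2c. Without Con library 1, which leaves Con library 2 as the only control, these 4 genes had log2 differences of -2.05, -2.27, -1.92 and -2.55. The lone sample is then assumed to vary like the others, so only effect sizes are given.

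In alveolar macrophage-like cells all 39 genes were tested over tumours, and 6 had an unadjusted p under 0.05. Of all 11081 genes, 1 (0.00902%) passed and 7.97% had an unadjusted p under 0.05. Ccnd1 was at 14.4, 10.7, 11.2 and 18.8 CPM in mA1 tumours, against 19.98, 24.5, 19.6 and 38.3 CPM in Con tumours. The groups did not overlap, yet the log2 difference of -0.86 ± 0.25 SE did not pass (edgeR adjusted p = 0.493, and 0.586 without Con library 2). Since tumour-like cells carry far more Ccnd1, the summed level of 7 tumour-like marker genes in these macrophages is given beside it: 222 ± 16.4 CPM in mA1 (205 to 244) and 272 ± 117 CPM in Con tumours (159 to 392), with 0 of 7 markers higher in mA1, and none at 0 throughout. The 6 neutrophil-like markers summed to 43.1 ± 5.14 CPM in mA1 (38.5 to 48.8) and 70.3 ± 24.4 CPM in Con tumours (47.4 to 103), again with 0 higher in mA1. Krt8 and Epcam, given above, were low in this class, so most of the tumour-like sum came from other genes. That sum is therefore no direct measure of tumour RNA, and the part of both sums in the result was not tested. Cenpe, the kinetochore motor, was at 52.9, 44.3, 36.4 and 41.6 CPM in mA1 tumours and 31.1, 38.7, 35.4 and 34.0 CPM in Con tumours (0.35 ± 0.11, edgeR adjusted p = 0.518), with overlap. Ccnb1 (0.38 ± 0.13), Cenpf (0.33 ± 0.12), Tpx2 (0.25 ± 0.09) and Ccnd3 (-0.22 ± 0.08) had adjusted p of 0.563 to 0.580, and Ccnd2 was at 0.00 ± 0.09. By role, 16 of 20 G2/M genes had a positive estimate (median 0.11), against a median of 0.00 over all genes. This number was 19 of 20 without Con library 2 and 10 of 20 without mA1 library 1. The S genes turned with Con library 2: 13 of 14 estimates were negative with it (median -0.13) and 14 of 14 positive without it (0.15). With Con library 1 left out, Ccnd3, Mcm6, Mcm7, Rrm2 and Uhrf1 passed as lower in mA1, where 503 of 11412 genes passed, 217 lower. With mA1 library 1 left out, Cdk1 passed as lower, where 100 of 11277 genes passed, 91 lower.

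Of the inhibitors in alveolar macrophage-like cells, Cdkn2a was at 40.5, 52.2, 50.6 and 50.1 CPM in mA1 tumours, against 79.2, 78.5, 60.5 and 99.9 CPM in Con tumours. The groups did not overlap. The log2 difference of -0.68 ± 0.14 SE did not pass in edgeR (adjusted p = 0.274), passed in DESeq2 (-0.68 ± 0.15, adjusted p = 0.0028), and passed in edgeR without Con library 2 (-0.72 ± 0.10, adjusted p = 0.045). Cdkn2a, like Ccnd1, was far higher in tumour-like cells, and the same marker sums stand beside it. In the tumour-like cells themselves its log2 difference was -0.12 ± 0.25 (edgeR adjusted p = 0.999). In Ccl17-high macrophages, Cdkn2a was at 77.0, 57.6, 77.1 and 76.9 CPM in mA1 tumours, against 158, 109.4, 98.9 and 117.5 CPM in Con tumours, again without overlap, and the smallest edgeR adjusted p among the 9 inhibitors tested there was 0.265. In the alveolar macrophage-like cells, Cdkn1b (-0.19 ± 0.07) and Cdkn1a (-0.34 ± 0.39) had edgeR adjusted p of 0.580 and 0.839, and 6 of the 9 genes tested of the inhibitor list had an unadjusted p under 0.05. None of the 81 other cell cycle genes tested passed (edgeR), and 9 had an unadjusted p under 0.05.

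In lymphocytes 36 genes were tested over tumours, 4 had an unadjusted p under 0.05, and 9 of all 10328 genes (0.0871%) passed, 0.00968% higher and 0.0775% lower, and 12.4% had an unadjusted p under 0.05. Ccnd3 was at 216, 184, 199.9 and 188 CPM in mA1 tumours, against 249, 211, 259 and 263 CPM in Con tumours, with overlap (-0.25 ± 0.07 SE, edgeR adjusted p = 0.190, and 0.846 without Con library 2). Tk1, thymidine kinase, was at 8.87, 7.11, 9.86 and 14.8 CPM in mA1 tumours and 7.16, 3.84, 5.47 and 8.18 CPM in Con tumours (0.82 ± 0.26, adjusted p = 0.212). Pcna (-0.25 ± 0.10), Aurka, a spindle kinase (0.81 ± 0.35), and Ccne1 (0.56 ± 0.27) followed with adjusted p of 0.303 to 0.412, Ccnd2 was at 0.06 ± 0.15, and Ccnd1 was too low to test. The median was 0.07 over the 36 genes, against 0.00 over all genes. Of the 19 G2/M genes tested, 15 had a positive estimate, 19 of 19 did without Con library 2, and 4 of 19 without mA1 library 2. Of the 14 S genes, 7 had a positive estimate, and 11 did without Con library 2. Tk1 passed without a filter on low counts, Pcna without Con library 1 and Aurka without mA1 library 1. In these settings 281 of 19327, 283 of 10655 and 120 of 10530 genes passed, in the same order. In lymphocytes the 7 tumour-like markers summed to 25.3 ± 3.31 CPM in mA1 and 49.6 ± 6.65 CPM in Con tumours, with 0 of 7 higher in mA1 and none at 0 throughout, and their part in these values was not tested. None of 66 other cell cycle genes passed in lymphocytes (edgeR, 8 with an unadjusted p under 0.05) and none of 71 in tumour-like cells (2 with an unadjusted p under 0.05).

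**Figure D5:**
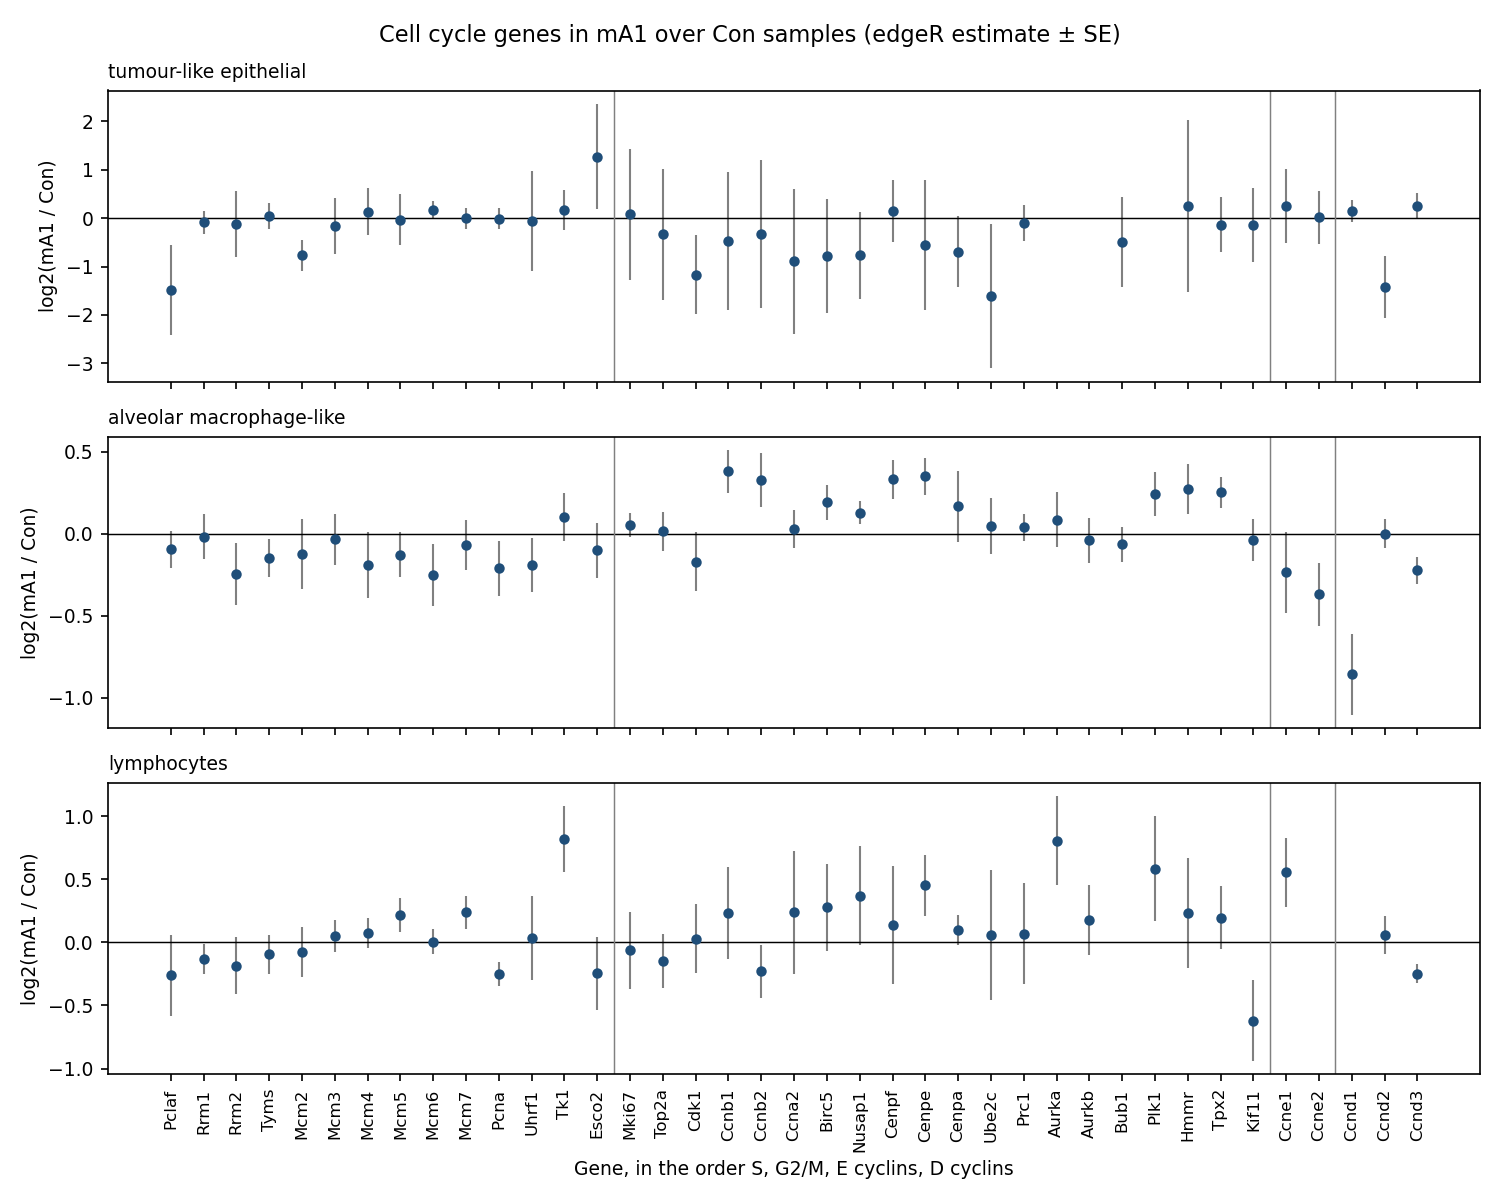
Log2 difference of mA1 over Con samples with its standard error (edgeR, y axes, scales differ) for each tested gene (x axis, by role) in tumour-like cells (2 libraries each), alveolar macrophage-like cells and lymphocytes (4 tumours each). Ccnd1 is lowest in alveolar macrophage-like cells (-0.86 ± 0.25) and no gene passed the test.

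In 8 further classes the cycling share was compared over tumours, and the smallest Benjamini-Hochberg adjusted exact permutation p was 0.686. Ccl17-high macrophages had 13.8% ± 3.18 in mA1 and 9.81% ± 2.86 in Con tumours (SD, n = 4 each, unadjusted exact permutation p = 0.114). C1q macrophage-like cells had 6.71% ± 2.93 in mA1 and 9.39% ± 2.27 in Con tumours (p = 0.2, exact permutation). In Ccl17-high macrophages all 20 G2/M genes had a positive estimate (median 0.39), and 14 to 20 did with 1 library left out. In C1q macrophage-like cells all 15 tested had a negative one (median -0.44), and 12 of 15 without Con library 2. None passed in either class (edgeR, 5 of 39 and 6 of 31 tested genes with an unadjusted p under 0.05, as had 7.24% and 3.88% of all genes). In all, 6 of 9438 genes (0.0636%) passed in Ccl17-high macrophages and 0 of 7440 (0%) in C1q macrophage-like cells. The genes of a class share cells and samples, so a common sign counts once per class. Too few UMIs left 9 of the 39 genes to test in B cell-like cells, 30 and 21 in the CD4 and CD8 T cell-like classes, 10 each in gamma-delta T-like and NK-like cells and 4 in neutrophil-like cells. None passed (edgeR, 2, 3, 0, 1, 0 and 1 with an unadjusted p under 0.05, in the same order), where 0.0322%, 0%, 0.122%, 0.0915%, 0.285% and 0% of all genes did. Of all genes, 2.98 to 10.7% had an unadjusted p under 0.05 in these classes.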

How the data were processed

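The deposited matrices hold UMI counts per gene and cell, made by the authors with Cell Ranger 6.0.1 on mm10, per the submitters' processing notes. The antibody features were used for hashtags only. Barcodes with at least 500 UMIs, 250 genes and at most 15% mitochondrial UMIs were kept. Hashtags were called by a mixture of 2 Gaussians, and cells with both tags or called by Scrublet were left out. Clusters came from scanpy 1.11.5 (2000 variable genes, 30 components, Leiden resolution 1), without cell cycle genes, and were named from marker genes. Cells were thinned to 1000 UMIs by random draws, and shallower cells were left out of shares (0 tumour-like cells, 13 alveolar macrophage-like cells and 135 lymphocytes). Summed counts were tested with edgeR 4.0.16 (TMM, filterByExpr, quasi-likelihood) and DESeq2 1.42.0, after tests on simulated data. The 39 genes, the lists and the named genes (any passing, otherwise the 5 smallest p and the D cyclins) were chosen with earlier results of these data known. Same-numbered libraries share only a number. Intervals cover counting error only. Alternatives varied the tool, filter, call, thinning, clustering, mitochondrial limit, doublets and samples.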

Additional observations from a re-analysis of the deposited data

Results flagged for a closer look

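Of 176 groups of 4 tumours examined, 10 held 1 tumour far from the other 3, which chance gives in about 1 of 20 groups. The tumour with hashtag 1 in mA1 library 2 stood out most often. Its cycling share was 2.78% in lymphocytes (1.89 to 2.00% in the other mA1 tumours), 4.76% in CD4 T-like cells (2.93 to 3.04%) and 9.09% in Ccl17-high macrophages (14.9 to 16.1%). In its lymphocytes, Mcm2 was at 23.3 CPM (13.8 to 15.4 in the others), Nusap1 at 33.2 CPM (11.4 to 14.02) and Aurkb at 10.3 CPM (5.19 to 6.01). The NK-like cells of hashtag 2 in mA1 library 1 had 0.810% cycling cells, where the other 3 mA1 tumours had 0%. Ccl17-high macrophages of hashtag 1 in Con library 1 had 5.56% (11 to 11.7% in the other Con tumours). With hashtag 2 in Con library 2, Ccnb2 was at 24.3 CPM in alveolar macrophage-like cells (36.4 to 37.3 in the others) and Ccne2 at 5.28 CPM in lymphocytes (1.68 to 1.81). What lay behind these values was not tested.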

How the results depend on the processing

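Several differences of mA1 minus Con in cycling share turned in sign. The exact permutation test of these differences could not pass in tumour-like cells, nor in the other classes without 1 library, where the smallest possible p was 0.0667. The tumour-like difference of mA1 minus Con was 1.35 points without shared barcodes and 0.845 with neighbouring clusters merged in, and the alveolar macrophage-like one 0.259 with clusters merged in. The lymphocyte one was -0.0208 after thinning to 2000 UMIs and -1.21 with the looser call. The tumour-like minus lymphocyte difference was 0.196 with the stricter call, 0.376 with cell cycle genes in the clustering and 0.0700 with clusters merged in. The difference of mA1 minus Con in balance moved to 0.13 in tumour-like cells without thinning. In lymphocytes it moved to 1.22 with cell cycle genes in the clustering. Without the count filter 1 gene passed in lymphocytes, and without shared barcodes 35 passed between tumour-like cells and lymphocytes.

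Without the tumour of hashtag 1 in mA1 library 2, the difference in cycling share was 0.0384 points in alveolar macrophage-like cells and -0.0182 in lymphocytes. The difference of mA1 minus Con in lymphocyte balance was then 0.170. Without Con library 2, the difference in alveolar macrophage-like balance was 0.0117. With 1 library or tumour left out, differences in cycling share ran from -1.43 to 1.22 points in tumour-like cells, -2.82 to 0.870 in alveolar macrophage-like cells, -0.337 to 0.719 in lymphocytes and -0.467 to 0.125 between tumour-like cells and lymphocytes. Differences of mA1 minus Con in balance ran from -1.61 to 0.40 in tumour-like cells, -0.62 to 0.01 in alveolar macrophage-like cells and -0.26 to 0.19 in lymphocytes. Genes passing ran from 0 to 4, 0 to 5 and 0 to 1 in the 3 classes. Cycling shares of alveolar macrophage-like cells stayed above those of lymphocytes, by 12.0 to 13.4 points, and of tumour-like cells, by differences of -13.3 to -12.2.

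Same-numbered libraries correlated in their deviations at -0.23 (tumour-like, 10338 genes), 0.122 (alveolar macrophage-like) and 0.0569 (lymphocytes). With the replicate block 0 of the 39 genes passed in each class, and 0, 6 and 43 of all genes, against 0, 1 and 9 without it and 32, 37 and 24 with DESeq2. The crossed pairing in tumour-like cells gave 0 and 4. The settings with shared barcodes, merged clusters and crossed pairing, and signs by role without a library, were chosen after seeing the data. The cause was not tested in any case. The 11 cycling tumour-like cells limit what can be seen there.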
